A study of Oryza sativa Japonica Group with 24 samples.

Results

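Transcripts of 4 rice loci annotated as SAM dependent carboxyl methyltransferases were followed across roots and shoots: LOC_Os11g15040, LOC_Os11g15300, LOC_Os06g21820 and LOC_Os02g48770. These 4 genes were taken by locus name from 57668 features. They belong to a family of 42 loci that carry the same description, and the other 38 are used here for comparison. The 4 were chosen by their FPKM in these groups. Which comparisons counted in that choice is not recorded, so all their levels and differences are given as a description, with no p-value. How many of them a fit over all genes called is printed beside the share of all genes, and nothing is read from it. The other family members were tested with every expressed gene.

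Many enzymes of this family, called SABATH after salicylic acid, benzoic acid and theobromine, move a methyl group from S-adenosylmethionine (SAM) to the carboxyl group of a small acid. Known substrates in plants include salicylic, benzoic and jasmonic acid, and the methyl esters are more volatile than the acids. In several species these enzymes make methyl salicylate and methyl jasmonate, compounds known from responses to wounding, herbivores and pathogens. Which acid each of the 4 rice enzymes uses is not annotated in the sources used here.

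Messenger RNA came from seedlings of Oryza sativa Japonica in 8 groups of 3 libraries. Wild-type plants (WT), an overexpression line of bHLH6 (bHLH6-OV) and a T-DNA line of SPX4 (spx4) had grown in 200 µM phosphate (Pi; high Pi) up to an age of 21 days. A further WT group was moved at an age of 7 days to 10 µM Pi for 2 weeks (low Pi). Roots and shoots were sequenced separately, and each library pooled 3 seedlings. bHLH6 is a transcription factor of the basic helix-loop-helix type, and SPX4 encodes a protein with the Pi-sensing SPX domain. Each modified line is a single line in the labels, the promoter of the overexpression construct is not named there, and effects of the line and of the gene cannot be told apart. All comparisons within a tissue share the same 3 WT libraries at high Pi.

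Between 21.0 and 29.6 M reads per library fell on genes. Expression is given as deposited FPKM, a fragment number scaled by gene length and library, with the mean ± SD over 3 libraries, and log2 differences are of FPKM + 1. The manipulated genes went with the labels, although SPX4 was only reduced in spx4. bHLH6 stood at 134 ± 25.6 FPKM in bHLH6-OV roots against 4.75 ± 1.32 in WT roots, and at 105 ± 17.5 against 5.24 ± 0.0435 in shoots (SD, n = 3). SPX4 stood at 6.21 ± 0.863 FPKM in spx4 roots against 11.3 ± 0.193 in WT roots, and at 7.67 ± 0.89 against 13.8 ± 1.61 in shoots (SD, n = 3). Replicate 1 of the low Pi shoots differed from the rest of its group: it held 9.25 FPKM of bHLH6, against 83.1 and 73.8 in replicates 2 and 3. Results that rest on that library are also given without it. In these whole-organ libraries, fewer cells of a type and less mRNA per cell cannot be told apart.

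The family was unevenly spread over the genome, with 23 loci on chromosome 6, 9 on chromosome 11 and 5 on chromosome 4. LOC_Os11g15040 (chromosome 11, 8466832 to 8469354, plus strand) and LOC_Os11g15300 (chromosome 11, 8648863 to 8650862, plus strand) lay in a cluster of 9 family genes spanning 277 kb. LOC_Os06g21820 lay on chromosome 6 (12604816 to 12606666, plus strand), with 4 further family genes within 50 kb. LOC_Os02g48770 (chromosome 2, 29850372 to 29852551, plus strand) was the sole locus with the family description on its chromosome. Of the 57668 features 22642 carry a description, so family genes without one would be missed. Coordinates are those of the authors' table, whose genome build is not given in the sources used here. How reads shared by near-identical copies were counted is not given either, so levels within the clusters carry that uncertainty.

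LOC_Os11g15040 was the leading family transcript of WT shoots. It stood at 144, 199 and 146 FPKM in the 3 WT shoot libraries, at 15.9, 27 and 8.75 in bHLH6-OV shoots, at 76.8, 84.6 and 92 in spx4 shoots and at 61.9, 35.9 and 42.1 in low Pi shoots. Every library of the other 3 groups lay below every WT library, and the 3 groups did not overlap each other. The means were 163 ± 30.9, 17.2 ± 9.2, 84.5 ± 7.59 and 46.7 ± 13.6 FPKM (SD, n = 3). Relative to WT this was 0.106 of the level in bHLH6-OV, 0.518 in spx4 and 0.286 at low Pi, with log2 differences of -3.28, -0.93 and -1.80. Thus the lowest shoot levels belonged to the overexpressing line and the mildest reduction to spx4. Without WT low Pi shoot replicate 1 the low Pi level was 0.239 of WT.

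In roots the same gene was far less abundant, and the overexpressing line lay on the other side of WT. LOC_Os11g15040 stood at 4.99, 7.13 and 5.9 FPKM in WT roots, at 15.9, 19.8 and 12.5 in bHLH6-OV roots, at 9.77, 8.24 and 3.86 in spx4 roots and at 0.445, 0.842 and 0.676 in low Pi roots. All bHLH6-OV libraries were above and all low Pi libraries below the WT libraries, whereas spx4 overlapped WT. The bHLH6-OV mean of 16.1 ± 3.67 was 2.68 times the WT mean of 6 ± 1.07, and the low Pi mean of 0.654 ± 0.199 was 0.109 of it (SD, n = 3). The log2 differences were 1.27, 0.18 and -2.08 for bHLH6-OV, spx4 and low Pi. The shoot level exceeded the root level 27.2-fold in WT, 11.6-fold in spx4 and 71.3-fold at low Pi. In bHLH6-OV the ratio was 1.07, and its root and shoot libraries overlapped. Relative to reads, the deposited FPKM are scaled higher in shoots than in roots, and ratios between organs carry that scaling.

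Levels of leaf photosynthesis genes moved with LOC_Os11g15040 in roots. The levels of 4 shoot markers were summed, 2 genes of the Rubisco small subunit and 2 of light-harvesting proteins, of which LOC_Os01g52240 was at 0 in every library. The summed level was 101 to 132 FPKM in WT roots, 343 to 489 in bHLH6-OV roots, 138 to 363 in spx4 roots and 10.5 to 27 in low Pi roots. All 3 measurable markers were called higher in bHLH6-OV roots and lower in low Pi roots by limma, and 1 was called higher in spx4 roots. Of all tested genes, 18.0%, 31.4% and 2.46% were called in bHLH6-OV, low Pi and spx4 roots. Their part in the root levels of LOC_Os11g15040 was not tested. In shoots the sums were 16508 to 24357 FPKM in WT, 10719 to 24447 in bHLH6-OV, 27395 to 40404 in spx4 and 4578 to 23818 at low Pi. No shoot marker was called in any shoot comparison, where 31.3%, 48.2% and 2.14% of all tested genes were called with bHLH6-OV, low Pi and spx4. There the order of the groups was not that of LOC_Os11g15040, since spx4 held the highest marker sums and WT the highest methyltransferase level. The 4 root markers (RCc3 and the transporters LSI1, LSI2 and IRT1) summed to 3864 to 4103 FPKM in WT roots, 3104 to 3736 in bHLH6-OV, 3447 to 4016 in spx4 and 3031 to 3446 at low Pi. In low Pi roots 3 of the 4 were called lower (31.4% of all tested genes called), in bHLH6-OV roots 2 (18.0%) and in spx4 roots 1 (2.46%), IRT1 each time among them. In shoots they summed to 27.2 to 30.7 FPKM in WT, 12.9 to 22.9 in bHLH6-OV, 33.4 to 36.6 in spx4 and 10.1 to 14.7 at low Pi. Of 2 tested there, 1 was called lower with bHLH6-OV (31.3% of all tested genes called), 2 at low Pi (48.2%) and 0 with spx4 (2.14%). Their part in the levels of the 4 methyltransferases was not tested.

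LOC_Os11g15300 was a root transcript. It stood at 2.6, 4.29 and 4.59 FPKM in WT roots, at 21, 17.4 and 12.8 in bHLH6-OV roots, at 15.6, 15.6 and 9.31 in spx4 roots and at 2.44, 6.09 and 3.27 in low Pi roots. Both modified lines lay above WT in every library and overlapped each other, while low Pi overlapped WT. The means were 3.83 ± 1.07 in WT, 17.1 ± 4.14 in bHLH6-OV, 13.5 ± 3.65 in spx4 and 3.93 ± 1.91 at low Pi (SD, n = 3). The level was 4.45 times that of WT in bHLH6-OV and 3.54 times in spx4, with log2 differences of 1.90 and 1.58, and the log2 difference at low Pi was -0.01. Of the 4 genes, this was the one at which spx4 roots stood clear of WT roots. In shoots there were 0 reads in all WT and all low Pi libraries, 2 reads over the bHLH6-OV libraries and 3 over the spx4 libraries. Set against 3 reads over the WT shoot group (0.0344 FPKM), the WT root level was at least 111-fold higher, and at low Pi the root level was at least 107-fold higher. These floors cover counting error only.

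LOC_Os06g21820 was present in both organs. Its root levels were 28.7, 30.5 and 31.4 FPKM in WT, 32.5, 12.3 and 21.8 in bHLH6-OV, 39.6, 36.4 and 23.4 in spx4 and 33, 50.8 and 39.7 at low Pi. The bHLH6-OV and spx4 libraries overlapped WT, and the low Pi libraries lay above WT by a small margin (means 41.2 ± 8.98 and 30.2 ± 1.38, SD, n = 3). Log2 differences in roots were -0.53, 0.10 and 0.41 for bHLH6-OV, spx4 and low Pi. The shoot levels were 3.88, 4.36 and 5.96 FPKM in WT, 48, 15.7 and 37.3 in bHLH6-OV, 4.56, 16.5 and 5.57 in spx4 and 129.8, 26.9 and 17.8 at low Pi. Every bHLH6-OV and low Pi shoot library was above every WT shoot library, and spx4 overlapped WT. The mean of 33.7 ± 16.5 in bHLH6-OV shoots was 7.11 times the WT mean of 4.73 ± 1.09 (SD, n = 3, log2 difference 2.48). At low Pi the mean of 58.2 ± 62.2 was 12.3 times WT (log2 difference 2.85), but 1 library, replicate 1, held most of it. Without that replicate the low Pi mean was 4.72 times WT and the log2 difference 2.02. The spx4 ratio of 1.88 likewise rested on replicate 2, and was 1.07 without it. WT roots held 6.39 times the WT shoot level, whereas root and shoot libraries overlapped in bHLH6-OV and at low Pi.

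LOC_Os02g48770 was mainly a shoot transcript. Its level was 0.049 to 0.84 FPKM over the 12 root libraries, too low to enter the root fit. In shoots it stood at 0.394, 0.394 and 2.3 FPKM in WT, at 4.22, 2.46 and 2.73 in bHLH6-OV, at 0.506, 0.746 and 1.29 in spx4 and at 36.3, 28.1 and 10.2 at low Pi. The low Pi libraries were the highest, the bHLH6-OV libraries came next, and spx4 and WT overlapped. The low Pi mean of 24.8 ± 13.3 was 24.2 times the WT mean of 1.03 ± 1.1 (SD, n = 3, log2 difference 3.63). This ratio was 18.6 without WT low Pi shoot replicate 1 and 63 without WT shoot replicate 3, the highest WT library. The bHLH6-OV mean of 3.14 ± 0.946 was 3.05 times WT (SD, n = 3, log2 difference 1.13), and 7.96 times without WT shoot replicate 3. In spx4 the ratio was 0.824, and 2.15 without that WT library.

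**Figure D1:**
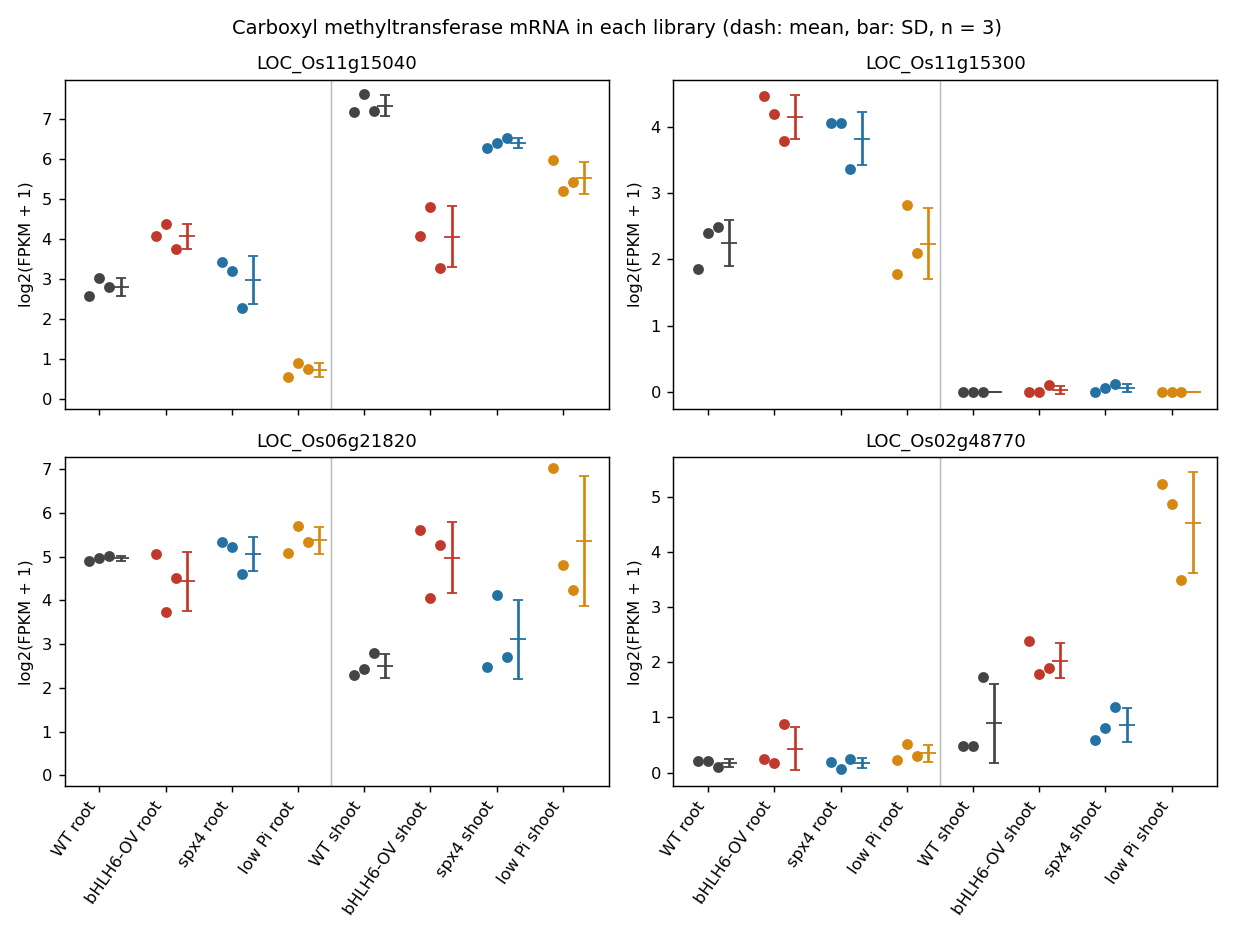
FPKM of the 4 methyltransferases, as log2(FPKM + 1) on the vertical axis, in each of 3 libraries per group (points), with the group mean (dash) and SD (bar) and root groups left of the line. LOC_Os11g15040 was highest in WT shoots (144 to 199 FPKM), LOC_Os11g15300 was found in roots (2.44 to 21 FPKM), and LOC_Os06g21820 and LOC_Os02g48770 were higher in low Pi than in WT shoots, with 1 low Pi library at 129.8 FPKM for LOC_Os06g21820.

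The order of the levels differed for each gene. For LOC_Os11g15040 it ran from WT shoots through spx4, low Pi and bHLH6-OV shoots to bHLH6-OV, spx4, WT and low Pi roots. In that order bHLH6-OV shoots could not be separated from bHLH6-OV roots, nor spx4 roots from WT roots, and all other neighbours were apart. For LOC_Os11g15300 the root groups fell into an upper pair (bHLH6-OV and spx4) and a lower pair (low Pi and WT), with overlap inside each pair and none between them. For LOC_Os06g21820 each group overlapped the next from low Pi shoots (58.2 FPKM) down to WT shoots (4.73 FPKM). For LOC_Os02g48770 low Pi shoots stood apart from bHLH6-OV shoots, and these from WT shoots.

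The share of each gene in the summed FPKM of the 42 family genes does not depend on how libraries were scaled. LOC_Os11g15040 made up 81.7%, 84.4% and 79.2% of that sum in WT shoots, 14.8%, 36.4% and 11.2% in bHLH6-OV shoots, 68.8%, 66.5% and 68.6% in spx4 shoots and 20.2%, 23.3% and 35.3% in low Pi shoots. All 3 groups were below WT in every library, by a wide margin in bHLH6-OV and at low Pi. LOC_Os06g21820 went from 2.42 ± 0.711% in WT shoots to 37.9 ± 14.6% in bHLH6-OV shoots and 24.9 ± 15.2% in low Pi shoots (SD, n = 3). Replicate 1 of the low Pi shoots held 42.4% and the others 17.5% and 14.9%. LOC_Os02g48770 went from 0.544 ± 0.604% in WT shoots to 3.58 ± 0.315% in bHLH6-OV and 12.9 ± 4.93% at low Pi (SD, n = 3). One transcript therefore made up most of the family sum in WT and spx4 shoots but not in bHLH6-OV or low Pi shoots. The sum itself was 199 ± 32 FPKM in WT shoots, 86.5 ± 18.1 in bHLH6-OV, 124 ± 11.5 in spx4 and 193 ± 99.3 at low Pi, where replicate 1 held 306 and the others 154 and 119. In roots the sums were 151 ± 0.624, 176 ± 26.9, 152 ± 20.7 and 193 ± 4.63 FPKM for WT, bHLH6-OV, spx4 and low Pi (SD, n = 3). LOC_Os06g21820 took 7.28% to 26.8% of them and LOC_Os11g15300 went from 2.54 ± 0.72% in WT to 9.63 ± 1.08% in bHLH6-OV and 8.78 ± 1.33% in spx4 (SD, n = 3).

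**Figure D2:**
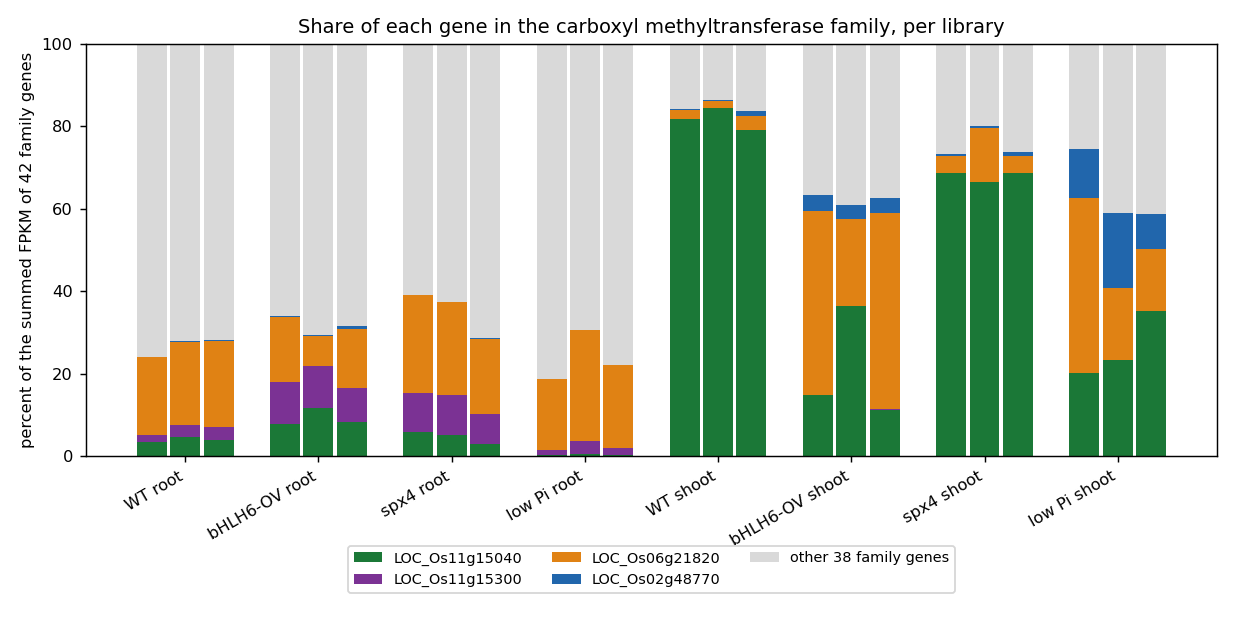
Percentage of the summed FPKM of 42 carboxyl methyltransferase loci held by each of the 4 genes and by the other 38 (grey), with 1 bar for each of 24 libraries in order of replicate number. LOC_Os11g15040 held 79.2% to 84.4% in WT shoots and 11.2% to 36.4% in bHLH6-OV shoots.

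Calls were made with limma on all genes with a mean of at least 1 FPKM, at a Benjamini-Hochberg adjusted p under 0.05. Counts for the 4 chosen genes are given beside the share of all tested genes called, and nothing is read from them. In roots 3 of the 4 genes were tested. With bHLH6-OV 2 of 3 were called, where 18.0% of all tested genes were called, with spx4 1 of 3 (2.46% called) and at low Pi 1 of 3 (31.4% called). In shoots also 3 were tested, of which 2 were called with bHLH6-OV (31.3% called), 0 with spx4 (2.14% called) and 3 at low Pi (48.2% called). Between WT roots and WT shoots all 4 were tested and 3 called (84.2% called). For the difference between the root and shoot effects, 3 of 4 were called with bHLH6-OV (29.4% called), 1 with spx4 (1.83% called) and 2 at low Pi (37.9% called). Rescaling to TPM moved the share of calls that were higher from 44.7% to 75.4% in bHLH6-OV shoots, from 46.1% to 58.3% in low Pi shoots and from 33.9% to 22.8% in spx4 shoots. The same rescaling moved that share from 53.8% to 68% for WT roots against shoots, and from 51.2% to 29.7%, 41% to 51.4% and 49.1% to 32.6% for the root minus shoot effects of bHLH6-OV, spx4 and low Pi. The median log2 fold change of all genes went with it from -0.05 to 0.15 in bHLH6-OV shoots and from 0.10 to 0.56 for WT roots against shoots. It went from 0.01 to -0.14, -0.01 to 0.10 and 0.04 to -0.08 for those root minus shoot effects. Under that rescaling no called difference named here for a family gene turned its sign.

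Among the other 38 family genes, 12 were expressed well enough to be tested in at least 1 organ, 10 in roots and 6 in shoots. Of the 38, 21 had a mean under 0.5 FPKM in every group, and 8 of the 42 had 0 reads in all 24 libraries. The most abundant, LOC_Os06g13560, was a root transcript at 65.6 ± 3.14 FPKM in WT roots and 0.465 ± 0.27 in WT shoots (SD, n = 3). Of 9 other genes tested between WT roots and shoots, 6 were higher in roots and 2 in shoots (limma), where 84.2% of all tested genes were called. LOC_Os06g13560 and LOC_Os11g15340 had the largest root excess, with log2 fold changes of 5.52 and 3.74. LOC_Os06g21720 (15.2 against 3.23 FPKM, log2 fold change -1.98) and LOC_Os05g01140 (3.23 against 0.189, -1.68) were higher in shoots. LOC_Os06g20630, LOC_Os06g20960 and LOC_Os11g15130 were at 0 reads in WT shoots and between 3.83 and 5.25 FPKM in WT roots. They and LOC_Os11g15340 averaged at most 0.304 FPKM over the 12 shoot libraries, and LOC_Os05g01140 averaged 0.111 over the 12 root libraries. All of these were tested between organs only because they are high in the other organ, so the direction of their calls supports nothing.

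With bHLH6-OV, 1 of 10 other family genes was called in roots, where 18.0% of all tested genes were called, and 1 of 6 in shoots, where 31.3% were. The shoot gene, LOC_Os06g20790, stood at 0.171, 0.168 and 0.247 FPKM in WT and at 3.84, 4.19 and 4.54 in bHLH6-OV, a ratio of 21.4 (log2 fold change 2.12). Its mean over the other 9 shoot libraries was 0.361 FPKM, so it was tested only because it is high in that group, and its call supports nothing. It was at 0.575 ± 0.357 FPKM in low Pi shoots and 0.313 ± 0.134 in spx4 shoots (SD, n = 3). In roots LOC_Os04g57090 rose by 0.55 on the log2 scale (limma adjusted p = 0.0169), from 1.2 ± 0.283 to 2.21 ± 0.271 FPKM (SD, n = 3). It was no longer called when replicate 1 or 2 of the WT roots or replicate 3 of the bHLH6-OV roots was left out. LOC_Os11g15340, in the same cluster as LOC_Os11g15300, stood at 14.4, 15.4 and 12 FPKM in WT roots and at 37.4, 36.5 and 27.1 in bHLH6-OV roots. These libraries did not overlap, yet the difference was not called (log2 fold change 1.21).

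With spx4, none of the 10 other family genes in roots was called by limma, where 2.46% of all tested genes were called. None of the 6 in shoots was called, where 2.14% were. At such low shares, the lack of a call among so few genes says little about the family. None had an unadjusted p under 0.05 in limma, as 13.2% of all tested genes had in roots and 15.4% in shoots. Voom of limma on rebuilt read numbers also called none. The 10 root genes had a median log2 fold change of -0.08 and the 6 shoot genes one of 0.00.

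At low Pi, 5 of 10 other family genes were called in roots, where 31.4% of all tested genes were called. LOC_Os11g15340 had a log2 fold change of -1.62 (limma adjusted p = 0.0105) and fell from 13.9 ± 1.74 FPKM at high Pi to 4.41 ± 3.12 (SD, n = 3). LOC_Os06g22440 had one of 0.96 (limma adjusted p = 9.31e-04) and rose from 4.9 ± 0.444 FPKM at high Pi to 10.7 ± 2.81 (SD, n = 3). Smaller changes that depended on single libraries were those of LOC_Os06g13560 (0.56, limma adjusted p = 0.0171), LOC_Os11g15130 (0.55, limma adjusted p = 0.0184) and LOC_Os06g20960 (-0.69, limma adjusted p = 0.0185). The LOC_Os06g13560 call was lost on leaving out replicate 2 or 3 of the WT roots or replicate 1 or 3 of the low Pi roots. The LOC_Os11g15130 call was lost on leaving out replicate 1 of either group or low Pi replicate 3, and the LOC_Os06g20960 call on leaving out WT replicate 1 or low Pi replicate 3. In shoots 3 of 6 rose, where 48.2% of all tested genes were called. LOC_Os05g01140 stood at 0.945, 4.86 and 3.88 FPKM in WT shoots and at 27.2, 36.6 and 13.5 at low Pi (log2 fold change 2.70, limma adjusted p = 0.0016), with no overlap. LOC_Os06g22440 had a log2 fold change of 1.17 (limma adjusted p = 0.00316), with 6.26 ± 1.13 FPKM at high and 16.3 ± 7.54 at low Pi (SD, n = 3), so it was higher at low Pi in both organs. Its low Pi shoot libraries held 24.7, 10.3 and 13.7 FPKM, and the shoot call held whichever library was left out. The rise of LOC_Os01g50610 (0.51, limma adjusted p = 0.0227) was lost on leaving out replicate 2 or 3 of the WT shoots or replicate 1 or 3 of the low Pi shoots.

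**Figure D3:**
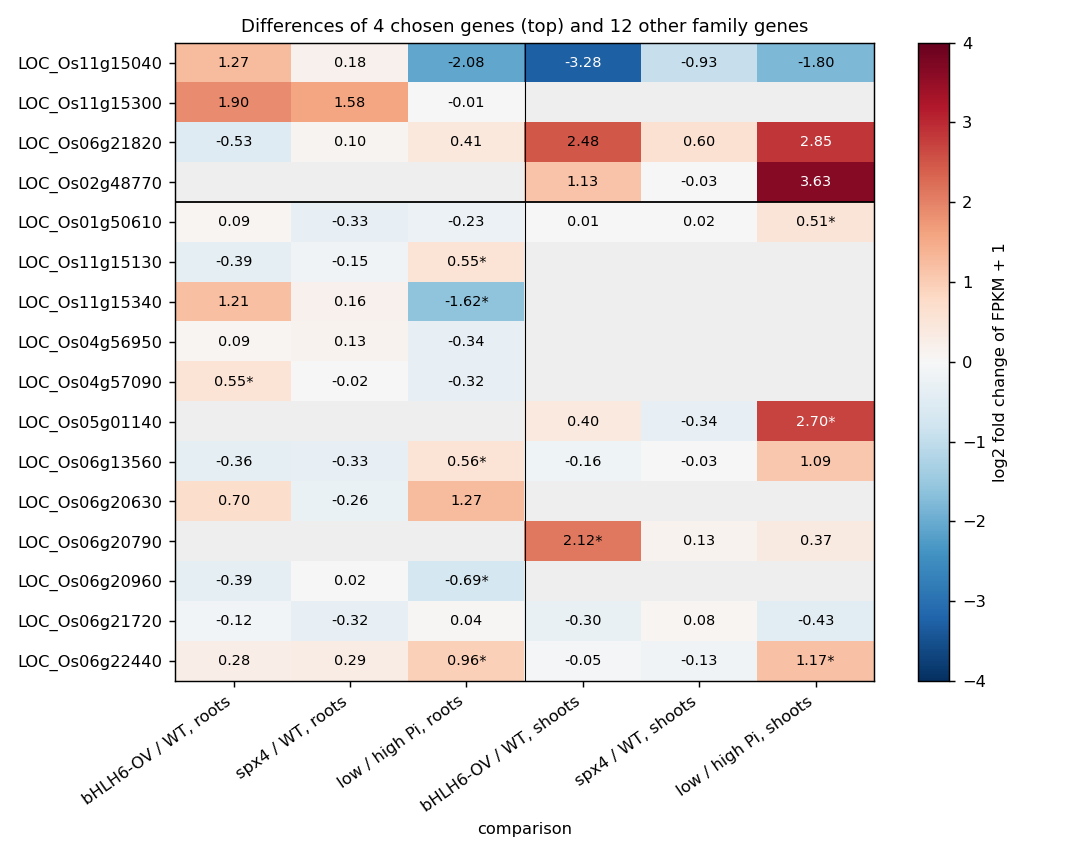
Log2 fold change of FPKM + 1 (colour and number) in 6 comparisons for the 4 chosen genes, above the line, and for the 12 other family genes tested, with an asterisk for calls by limma among those 12. Grey cells were not tested. LOC_Os11g15040 runs from -3.28 in bHLH6-OV shoots to 1.27 in bHLH6-OV roots, and LOC_Os06g20790, called in bHLH6-OV shoots, passed the filter only through that group.

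The chromosome 11 cluster held genes with opposite organ preference. LOC_Os11g15040 averaged 77.9 FPKM over the 12 shoot libraries and 7.5 over the 12 root libraries. Its nearest family neighbours on either side, LOC_Os11g15030 and LOC_Os11g15060, were at or under 0.128 FPKM in both organs. Farther along, LOC_Os11g15130, LOC_Os11g15300 and LOC_Os11g15340 averaged 4.02, 9.59 and 17.3 FPKM in roots and 0, 0.0169 and 0.304 in shoots. The start of LOC_Os11g15300 lay 182 kb from that of LOC_Os11g15040 and 28.5 kb from that of LOC_Os11g15340. The neighbour LOC_Os11g15250, without a description, fell in low Pi roots as LOC_Os11g15340 did (log2 fold change -2.53, limma adjusted p = 0.0054).

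**Figure D4:**
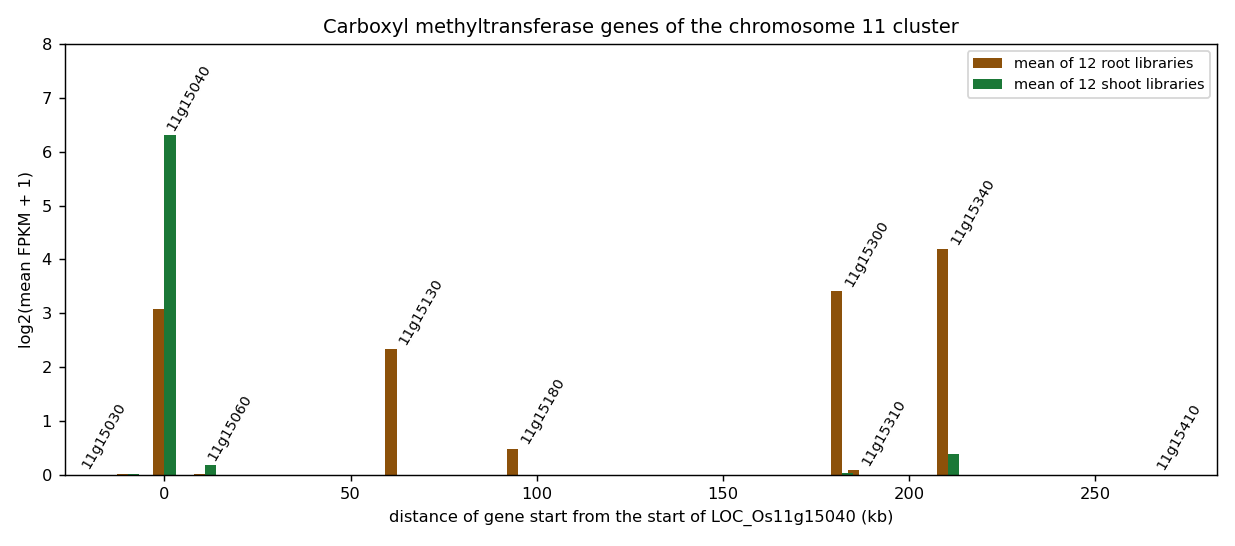
Mean level of the 9 carboxyl methyltransferase genes of chromosome 11, as log2 of mean FPKM + 1, in 12 root and 12 shoot libraries against the distance of each gene's start from the start of LOC_Os11g15040 in kb. LOC_Os11g15040 has the highest shoot bar (77.9 FPKM), and the tall bars to its right are root bars (up to 17.3 FPKM).

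Around the other loci most neighbours carried no description, so their family is not known. LOC_Os02g48770 had 21 genes within 50 kb, none described as of its own family. Of the 21, 17 were tested and 10 called in at least 1 of the 6 comparisons. Of all 24643 genes tested in at least 1 organ, 68.3% were called in at least 1. LOC_Os02g48860 and LOC_Os02g48870, at 38.9 and 42 kb, rose in low Pi shoots with log2 fold changes of 2.17 and 3.61 (limma adjusted p = 3.70e-07 and 4.90e-07), and a chloride channel gene, LOC_Os02g48880, rose by 1.35 (limma adjusted p = 6.06e-06). Around LOC_Os06g21820, 18 genes lay within 50 kb, 5 were tested and 3 called. LOC_Os06g21810, 2.32 kb before it and without a description, averaged 3.59 FPKM in bHLH6-OV roots and 0.501 over the other 9 root libraries (log2 fold change 1.86). It too was tested only through that group. LOC_Os06g21820 overlapped WT there.

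The genes most like each of the 4 were sought by Pearson's r of log2(FPKM + 1) over the 12 libraries of 1 organ, a description over libraries that share their groups. LOC_Os11g15040 in roots was most like LOC_Os12g08730, a thioredoxin domain gene (r = 0.989), LOC_Os08g43190, an alcohol dehydrogenase (r = 0.986) and LOC_Os07g05480, a photosystem I protein of the PsaG/PsaK type (r = 0.985). LOC_Os11g15300 in roots was most like LOC_Os12g04990, an AMP-dependent synthetase (r = 0.983), and LOC_Os08g09080, a cupin (r = 0.976). That cupin gene averaged 124 FPKM in WT, 289 in bHLH6-OV, 241 in spx4 and 106 in low Pi roots. LOC_Os06g21820 in shoots was most like LOC_Os07g38970, a succinyl-CoA synthetase-like gene (r = 0.979), and LOC_Os02g48770 in shoots was most like LOC_Os08g04630, with an FAD/NAD(P)-binding domain (r = 0.979).

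Genes for jasmonate synthesis and signalling, for salicylate signalling and defence, and for the methyl donor cycle were counted next. These lists were chosen with earlier results of these data known. The salicylate and defence list holds no salicylate synthesis gene, and in it LOC_Os07g03710, LOC_Os01g28450 and PBZ1 are readouts of defence. In bHLH6-OV shoots 5 of 6 salicylate and defence genes rose, where 31.3% of all tested genes were called in either direction, with a median log2 fold change of 3.08 against -0.05 over all genes. Of the 5, LOC_Os07g03710 was tested only through its level in that group. PBZ1, a pathogenesis-related protein gene, rose to 827 ± 108 FPKM from 60.9 ± 13.4 in WT (limma adjusted p = 5.14e-05, SD, n = 3). The WRKY domain gene LOC_Os05g25770 rose to 227 ± 45.9 FPKM from 42.1 ± 4.65 (limma adjusted p = 2.47e-06, SD, n = 3). NPR3, whose relatives bind salicylic acid in Arabidopsis, rose to 18.1 ± 1.74 FPKM from 8.9 ± 0.687 (limma adjusted p = 1.03e-04, SD, n = 3). LOC_Os11g15040 was lowest in these same shoots, and whether these levels are linked was not tested. In bHLH6-OV roots, where 18.0% of all tested genes were called, none of the 5 tested genes of this list was called higher. There 2 were called lower, both calls being lost without single libraries.

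Of 8 jasmonate genes, 3 were called lower and 1 higher in bHLH6-OV shoots, where 31.3% of all tested genes were called. The median log2 fold change was -0.05, as over all genes. AOS2, an allene oxide synthase of jasmonate synthesis, fell to 3.3 ± 1.24 FPKM from 16.4 ± 1.63 (SD, n = 3), with a log2 fold change of -2.05 (limma adjusted p = 1.47e-04). The other 3 calls were under 0.6 in size and each was lost without single libraries, namely AOS1 on leaving out replicate 2 of the WT shoots or replicate 1 of the bHLH6-OV shoots, OPR7 on leaving out any of 5 libraries and the receptor gene COI1b any of 4. In low Pi shoots, where 48.2% of all genes were called, 5 rose and 1 fell (median 0.61 against -0.05 over all genes). The synthesis genes AOS1, AOC and OPR7 rose by 1.46, 1.13 and 1.24 on the log2 scale (limma adjusted p = 1.63e-05, 1.56e-06 and 2.33e-06). In the same shoots 4 of 6 salicylate and defence genes rose (median 1.01), among them LOC_Os05g25770 to 242 ± 8.96 FPKM and NPR3 to 27 ± 2.88 (SD, n = 3, limma adjusted p = 7.41e-07 and 1.42e-06). Among the calls of low Pi shoots, those of JAR1, NPR1 and PBZ1 were lost on leaving out single libraries. In bHLH6-OV and spx4 roots, where 18.0% and 2.46% of all tested genes were called, no jasmonate gene was called. In low Pi roots, where 31.4% were, 1 of 8 tested jasmonate genes was called higher and 1 lower. There 2 of 5 tested salicylate and defence genes were called lower. Of these, the COI1b call was lost on leaving out any of 3 libraries and the LOC_Os05g25770 call any of 4.

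The methyl donor cycle was read from 8 genes, of which 5 were tested in roots and 6 in shoots. In shoots 2 were called higher with bHLH6-OV, where 31.3% of all tested genes were called, and 2 at low Pi (48.2% called). In roots 2 were called lower with bHLH6-OV (18.0% called) and 3 higher at low Pi (31.4% called). Calls lost on leaving out single libraries were those of LOC_Os12g42884 in bHLH6-OV roots (any of 7), LOC_Os12g42876 in low Pi roots (any of 5) and LOC_Os05g04510 in low Pi shoots (replicate 1 or 3 of the WT shoots). The SAM synthetase gene SAMS2 stood at 45.7 ± 2.28 FPKM in WT shoots, 80.2 ± 5.06 in bHLH6-OV shoots and 109.7 ± 42.3 in low Pi shoots (SD, n = 3). Both differences were called (limma adjusted p = 0.0141 and 8.25e-04), the former call being lost on leaving out replicate 2 of the line. A further SAM synthetase locus, LOC_Os01g18860, rose to 13.7 ± 4.62 FPKM in bHLH6-OV shoots from 0.837 ± 0.325 in WT (SD, n = 3), and was likewise tested only through that group. In bHLH6-OV roots SAMS2 fell from 539.7 to 321 FPKM (log2 fold change -0.76, limma adjusted p = 0.00296). The S-adenosylhomocysteine hydrolase locus LOC_Os11g26850, which clears the product of the methyl transfer, rose in low Pi roots from 737 to 1194 FPKM (log2 fold change 0.69, limma adjusted p = 0.00541). In spx4, SAMS2 in roots (2.46% of all tested genes called) and NPR3 in shoots (2.14% called) were the calls of these 3 lists. Both were lost without single libraries.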

How the data were processed

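FPKM for 57668 features in 24 libraries were used as the authors deposited them. Per the submitters' processing notes, HISAT2, StringTie, featureCounts 1.5.0-p3 and DESeq2 were used. The genome build is not given in the sources used here. FPKM times gene length fell on whole reads for 100.0% of features within 0.01 reads, which gave depths of 21.0 to 29.6 M reads. FPKM divisors were 1.15 to 1.3 times these depths in root libraries and 0.733 to 1.04 times in shoot libraries. Relative to reads, deposited FPKM are thus higher in shoots than in roots, and ratios between organs carry this difference. For this reason scaling was varied.

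The 4 genes and the lists were chosen with earlier results of these data known. The family was taken by description. Named besides the 4 were the 10 most abundant other family genes and those called without overlap, 11 in all, and family neighbours within 50 kb. Of 29 listed symbols, 17 had that symbol within 1 Mb in the RefSeq gene table, and the rest are given by locus, except bHLH6 and RCc3, which follow published assignments. Sequences were not used here.

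log2(FPKM + 1) was fitted with limma 3.58.1 (robust, with a trend) in R 4.3.3 on genes with a mean of at least 1 FPKM, 22090 in roots, 19990 in shoots and 22980 over both organs, with Benjamini-Hochberg adjustment. The fit was tested on simulated data. Python 3.11.15, pandas 2.3.3, numpy 2.4.6 and matplotlib 3.10.9 prepared tables and figures. Chi-square per degree of freedom between replicates was 3.53 to 127, more than counting noise. Replicate numbers showed no strong pairing of the libraries compared, with correlations of deviations of at most 0.21. Alternatives were other pseudocounts, filters, scalings, voom, a replicate block and leaving out each library.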

Additional observations from a re-analysis of the deposited data

Results flagged for a closer look

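The effect of a line or of low Pi differed between roots and shoots for the following genes, given as the root effect minus the shoot effect on the log2 scale, tested as an interaction in limma over 24 libraries except where stated. For LOC_Os11g15040 the difference was 4.56 for bHLH6-OV: every root library of the line was above WT and every shoot library below it. The gene was chosen with its values known, so the difference is a description and was not tested.

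For bHLH6-OV, 0 of 9 other family genes were called by limma, where 29.4% of all tested genes were called. An unadjusted limma p under 0.05 was held by 1 of the 9, and by 40.8% of all tested genes. In the jasmonate list AOS2 differed by 2.28 and COI1b by 0.48. In the salicylate and defence list NPR3 differed by -0.68, LOC_Os05g25770 by -2.34, LOC_Os07g03710 by -4.37, LOC_Os01g28450 by -6.34 and PBZ1 by -4.64. SAMS2 differed by -1.55. The COI1b difference was lost with TPM scaling and with voom.

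For low Pi, 5 of 9 other family genes were called by limma, where 37.9% of all tested genes were called. These were LOC_Os05g01140 (-2.84), LOC_Os11g15340 (-1.67), LOC_Os01g50610 (-0.73), LOC_Os11g15130 (0.55) and LOC_Os06g20960 (-0.71). LOC_Os11g15130 had 0 reads in every shoot library and LOC_Os06g20960 1 read over the 12 shoot libraries, so both values restate the root change and no difference between organs could be measured. LOC_Os05g01140 was near 0 in roots, at 0.189 FPKM in WT and 0.0795 at low Pi, so its value mostly restates the shoot change of 2.70. LOC_Os11g15340 was near 0 in shoots, at 0.117 FPKM in WT and 0.165 at low Pi, so its value mostly restates the root change of -1.62. LOC_Os11g15340 was also lost with pseudocount 0.1. In voom on rebuilt reads LOC_Os05g01140, LOC_Os11g15340, LOC_Os11g15130 and LOC_Os06g20960 were not called, and LOC_Os01g50610 was lost without WT root replicate 3 or WT shoot replicate 2. In the lists AOC differed by -0.66, a call lost when any of 11 libraries was left out, OPR7 by -0.90, LOC_Os10g42430 by -0.73, NPR1 by -1.09, NPR3 by -1.85, LOC_Os05g25770 by -2.84 and SAMS2 by -1.42.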

How the results depend on the processing

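The alternatives were pseudocounts of 0.1 and 5, no filter, a mean of at least 5 FPKM, TPM and median-of-ratios scaling, voom on rebuilt reads, a replicate block and each library left out. For the 4 chosen genes, 34 differences under 864 alternatives held 829 values within 1 SD of the main one, 35 beyond it and 0 with a called sign turned. Many of these values could not move. Changing the filter, adding the replicate block or leaving out a library of a group outside the comparison leaves a difference of group means as it was. The number within 1 SD therefore overstates how steady the differences are. Counts of other family genes called moved by over 1.5 times as follows. In bHLH6-OV roots 1 became 2 with pseudocount 5, 5 without a filter, 0 at a mean of at least 5 FPKM and 2 with voom. In spx4 roots 0 became 1 without a filter. In low Pi roots 5 became 11 without a filter and 3 at 5 FPKM. In bHLH6-OV shoots 1 became 3 and 0, in WT roots against shoots 8 became 16 and 3, and in the root minus shoot effects 5 became 16 and 1 under these filters and 1 with voom. In low Pi shoots 3 became 5 without a filter. The filters change which genes are tested. Leaving out 1 library gave 0 to 3 calls in bHLH6-OV roots, 2 to 7 in low Pi roots, 2 to 4 in low Pi shoots, 4 to 7 for the root minus shoot effects, 1 in bHLH6-OV shoots, 8 for WT roots against shoots and 0 in both spx4 comparisons.

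Replicate numbers were checked for pairing by correlating deviations of same-numbered libraries from their group means, which ranged from -0.36 to 0.48. All 3 correlations passed 0.1 in 1 of 16 pairs of groups, bHLH6-OV with spx4 roots, which were not compared. Among compared groups, bHLH6-OV with WT came near that mark, at 0.15, 0.16 and 0.08 in roots and 0.09, 0.16 and 0.21 in shoots. With the replicate block 2 other family genes were called in bHLH6-OV roots, against 1 without it, and no other count of family calls moved by over 1.5 times.

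FPKM near 0 limits 26 of the 42 family genes, which passed no filter in either organ, and the root level of LOC_Os02g48770. Fold changes of FPKM + 1 understate the change of low genes: for LOC_Os11g15040 in low Pi roots the log2 difference ran from -3.27 with voom to -0.96 with pseudocount 5.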
